A study of Mus musculus with 17 samples.

Results

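The genes of the mitochondrial respiratory chain were followed in peritoneal macrophages (PMs) exposed to the HIV protein Tat. Members were all rows of the expression table whose symbol begins with mt-, Nduf, Uqcr, Cox4 to Cox8 or Atp5, together with Sdha, Sdhb, Sdhc, Sdhd, Cyc1 and Cycs. The rule uses symbols only, and it gave 109 of the 21683 rows. Of these, 13 are encoded by mitochondrial DNA and 96 by the nucleus, among them 36 subunits of complex I, 8 complex I assembly factors with Ndufaf symbols, 4 subunits of complex II, 9 of complex III, 19 of complex IV, 17 of complex V and cytochrome c. Ndufa4, first described in complex I, was counted with complex IV, and Ndufb1-ps and Ndufa4l2 were kept apart.

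RNA was sequenced from elicited PMs of 8-week-old C57BL/6 mice, all homozygous for a loxP-flanked Ikbkb allele, the gene of the NF-κB kinase IKKβ. The 3 groups were PBS-treated PMs of IKKβ F/F mice (PBS F/F, n = 6 libraries), PMs of the same genotype treated with Tat at 100 nM (Tat F/F, n = 6) and PMs of IKKβ ΔMye mice under that Tat treatment (Tat ΔMye, n = 5). The treatment lasted 12 h, after 4 h of attachment. Cells had been drawn by 1 mL of 3% thioglycollate, given 3 days before collection by the labels and 4 days before it by the study's methods. The ΔMye mice also carried a heterozygous LysM-Cre knock-in, in which the Lyz2 promoter drives Cre in myeloid cells, neutrophils included. Tat was made in Escherichia coli, and the study's methods report that endotoxin was removed and lay below the detection limit. PMs of ΔMye mice given PBS were not analysed here, so the second comparison may hold differences that preceded Tat. Nothing in the labels says that libraries came from separate mice, although the study's heatmap legends describe the columns as mouse replicates. Whether PBS F/F and Tat F/F cells came from the same mice is not stated. The p-values measure only the spread between these libraries.

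The respiratory chain lies in the inner mitochondrial membrane. Complexes I and II pass electrons from NADH and succinate to coenzyme Q, complex III passes them to cytochrome c, and complex IV passes them to oxygen. Complexes I, III and IV pump protons, and complex V, the ATP synthase, uses the proton gradient to make ATP. Complex II is wholly nuclear-encoded, and the other complexes combine nuclear and mitochondrial gene products. Macrophages activated through Toll-like receptors are known to shift from oxidative phosphorylation towards glycolysis.

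Values are TPM, a transcript level scaled for transcript length and for the library's total, so an abundant rise elsewhere in a library lowers the TPM of other genes. Differences are on the log2(TPM + 0.1) scale, and adjusted p are from limma over the 10451 genes that reached 1 TPM in 5 or more libraries. A gene is said to rise, fall or differ where its adjusted p was under 0.01, and a second threshold adds a fold change over 3. The median difference of all tested genes was -0.65 between Tat F/F and PBS F/F and 0.22 between Tat ΔMye and Tat F/F. Median-ratio scaling, in which every library is divided by the median, over genes, of its ratio to the geometric mean of all libraries, moved these medians to -0.03 and 0.01, and its values are given for the classes and, where it changed a direction, for the genes described. Under that scaling the members with a positive difference went from 2 to 29 of 104 with Tat, and those with a negative difference between the Tat groups from 4 to 44. Depth is unknown, since the table gives no counts of reads. The listed TPM summed to 889318 to 903576 per library, and pairs of libraries within a group correlated at r = 0.984 to 0.990 with none identical.

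Ikbkb fell from a mean of 23.2 TPM in Tat F/F to 16.4 TPM in Tat ΔMye (log2 difference -0.51, adjusted p = 4.51e-05), with no overlap between those libraries. A transcript that lacks only the deleted stretch could still be counted, which limits this check of the labels. All 7 macrophage markers were expressed. Their summed TPM was 3817 to 4182 in PBS F/F, 3421 to 3644 in Tat F/F and 3727 to 3865 in Tat ΔMye. Cd68 was the largest part of this sum, with means of 2596, 1744 and 1886 TPM in the 3 groups. The sum hides opposite changes, since 3 of the 7 markers were higher with Tat and 4 lower. The mean of Csf1r went from 381 TPM in PBS F/F to 64 TPM in Tat F/F, and that of Cd14 from 203 to 842 TPM. Of the other marker lists, neutrophil markers summed to 52.3 to 60.7, 65.4 to 77.6 and 87.2 to 105 TPM in the 3 groups, nearly all from S100a8, while Mpo and Elane stayed under 1 TPM. T cell and innate lymphoid markers summed to 149 to 173, 147 to 162 and 155 to 169 TPM, most of it Il7r. Mast cell markers summed to 31 to 43.7, 29.0 to 40.9 and 22.5 to 29.1 TPM and B cell markers to 12.4 to 25.7, 11.3 to 15 and 8.33 to 13.0 TPM. NK cell markers reached at most 2.47 TPM, mesothelial markers 4.29 TPM and eosinophil markers 1.01 TPM in any library. The part of these cells in the results below was not tested, and fewer cells of a type and less RNA per cell cannot be told apart in such bulk samples.

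The mitochondrial genes lie head to tail on a compact genome, and some share bases, so that reads from the shared stretch belong to both genes. The stretch shown joins mt-Atp8 and mt-Atp6, subunits of complex V (chrM:7915-7981 of GRCm38, plus strand), with the 43 bases that belong to both genes in capitals.
mt-Atp8 and mt-Atp6: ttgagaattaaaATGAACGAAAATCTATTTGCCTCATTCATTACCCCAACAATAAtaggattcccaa

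The nuclear genes are transcribed from separate promoters, and RefSeq windows from 250 bases before to 50 bases after the start (GRCm38.p6) were found for 78 of the 96 nuclear members, 1 of them under another symbol. The windows below are those of Cycs (chr6:50566520-50566819, minus strand), the 1 member that rose with Tat, Ndufs7 (chr10:80249199-80249498, plus strand) and Uqcr11 (chr10:80406772-80407071, minus strand), which had the lowest differences among the complex I core subunits and in complex III, and Uqcrc1 (chr9:108936398-108936697, plus strand), a complex III subunit with a small fall. Capitals mark the YY1 motif AAGATGGC in Ndufs7 and the ETS motif CCGGAAGT in Uqcr11. In Uqcrc1 they mark, at 2 places, the NRF1 motif with its middle base open. No full match to these motifs, nor to the oestrogen-related receptor motif TCAAGGTCA, was found in the Cycs window. The Cycs and Uqcr11 windows each hold a near match to the NRF1 motif, which differs from it at the first base only.
Cycs: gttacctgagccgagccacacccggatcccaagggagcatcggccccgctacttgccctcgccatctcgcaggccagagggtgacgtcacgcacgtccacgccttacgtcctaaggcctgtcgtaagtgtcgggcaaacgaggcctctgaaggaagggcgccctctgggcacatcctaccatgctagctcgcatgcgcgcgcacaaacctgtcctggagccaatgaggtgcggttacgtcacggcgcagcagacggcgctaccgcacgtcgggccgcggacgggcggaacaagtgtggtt
Ndufs7: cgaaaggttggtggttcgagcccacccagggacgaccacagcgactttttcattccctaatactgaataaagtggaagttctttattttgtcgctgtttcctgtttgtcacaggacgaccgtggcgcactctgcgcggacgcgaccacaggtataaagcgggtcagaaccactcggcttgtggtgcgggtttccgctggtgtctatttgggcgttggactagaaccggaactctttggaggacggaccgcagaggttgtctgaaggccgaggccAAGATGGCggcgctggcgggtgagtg
Uqcr11: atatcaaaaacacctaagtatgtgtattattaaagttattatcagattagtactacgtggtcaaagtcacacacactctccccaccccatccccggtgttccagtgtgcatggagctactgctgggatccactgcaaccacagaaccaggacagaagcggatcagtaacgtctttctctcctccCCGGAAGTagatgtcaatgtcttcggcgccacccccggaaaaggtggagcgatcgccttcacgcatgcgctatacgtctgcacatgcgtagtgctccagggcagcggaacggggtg
Uqcrc1: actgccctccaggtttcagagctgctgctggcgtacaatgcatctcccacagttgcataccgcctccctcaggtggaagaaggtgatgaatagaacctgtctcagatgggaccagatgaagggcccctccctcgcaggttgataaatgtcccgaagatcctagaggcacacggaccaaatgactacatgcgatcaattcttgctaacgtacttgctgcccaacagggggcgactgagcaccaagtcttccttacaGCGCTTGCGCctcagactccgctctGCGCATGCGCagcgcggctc

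Motifs were searched on both strands, and near matches were not counted. NRF1, the GABP proteins of the ETS family, YY1 and oestrogen-related receptors are nuclear factors known to act on respiratory chain genes. The NRF1 motif was in 8.43% of 83 member windows and in 0.971% of all 32851 windows, and its looser form with a middle base open, which includes it, in 24.1% and 4.60%. AAGATGGC was in 13.3% of member windows and 2.75% of all windows, CCGGAAGT in 6.02% and 3.89%, and TCAAGGTCA in 2.41% and 0.423%. Among the 32 complex I subunit genes with a window, 7 (21.9%) held AAGATGGC, namely Ndufa3, Ndufa9, Ndufb8, Ndufc1, Ndufs4, Ndufs6 and Ndufs7. These 7 had differences with Tat from -1.60 (Ndufs7) to -0.08 (Ndufs4), so the motif was present at both ends of the range in complex I. A match is a description of the sequence and does not show binding.

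The first comparison asked how Tat altered these transcripts in IKKβ F/F PMs. Subunit transcripts were lower with Tat in nearly every class. Of the 104 members tested, 100 (96.2%) fell, against 67.6% of all tested genes, 1 (Cycs) rose, against 17%, and 3 (Ndufs4, Ndufb1-ps and Cox7a1) did neither. The 6 Tat F/F libraries lay wholly below the 6 PBS F/F libraries for 98 members and wholly above for 1, against 62.4% and 15.3% of all tested genes. The median member difference was -0.82, and 73 members lay below the median of all genes. After median-ratio scaling the median was -0.19, with 49 members lower and 17 higher, beside 38.0% and 37.3% of all genes.

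Few members passed the fold threshold, namely 7 lower (19.4% of all tested genes) and 0 higher (5.21%). The 7 were Ndufb10, Ndufv3, Ndufs7, Ndufaf3, Ndufaf4, Ndufaf7 and Cox6b2, so all but Cox6b2 are subunits or assembly factors of complex I. After scaling 3 were left (Ndufaf4, Ndufaf7 and Cox6b2) beside 9.73% of all genes, and Cycs passed in the other direction beside 8.51%. The 5 members outside the test were Cox8c, Cox8b and Cox7b2, at 0 TPM in every library, and Cox4i2 and Ndufa4l2, under 1 TPM throughout. These 5 are known chiefly as isoforms of testis, muscle, lung or hypoxic tissue.

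**Figure D1:**
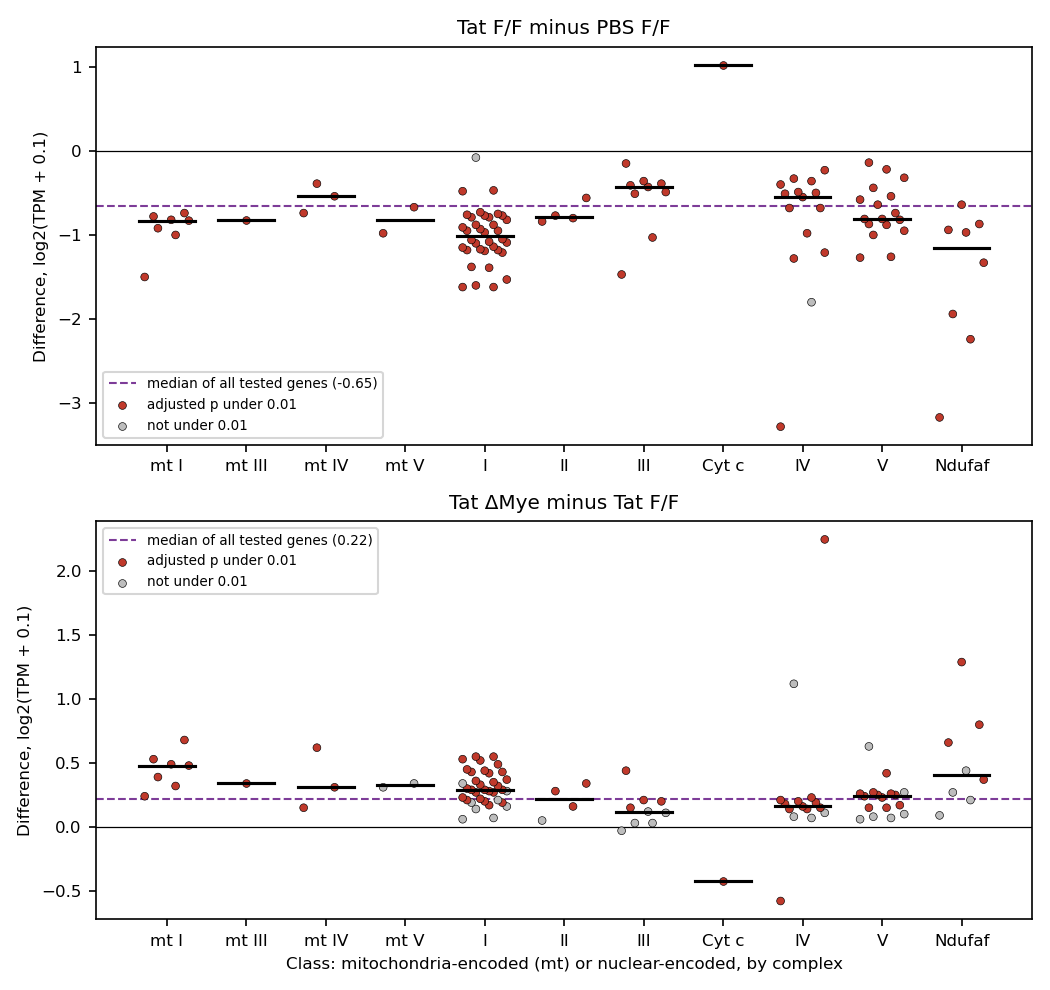
Difference of each tested member on the log2(TPM + 0.1) scale (y axis) by genome and complex (x axis), for Tat F/F minus PBS F/F (top) and Tat ΔMye minus Tat F/F (bottom), with short lines at class medians and dashed lines at the medians of all tested genes (-0.65 and 0.22). With Tat most complex I and Ndufaf points lie below the dashed line, most complex III points lie above it, and Cycs is the 1 point at 1.02.

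Mitochondria-encoded and nuclear-encoded subunits fell to like degrees with Tat. The 13 mitochondria-encoded transcripts summed to 28818 to 35600 TPM (median 31409) in PBS F/F, 18581 to 21043 (median 19200) in Tat F/F, and 23922, 24701, 25933, 25391 and 25417 TPM in the Tat ΔMye libraries. The 3 groups did not overlap, and the Tat F/F mean (19480 ± 913 TPM, SD) was 61.7% of the PBS F/F mean (31560 ± 2294 TPM). The nuclear-encoded subunits summed to 17988 ± 604 TPM in PBS F/F, 11284 ± 283 in Tat F/F and 12785 ± 372 in Tat ΔMye. Their Tat F/F mean was 62.7% of that in PBS F/F, again with no overlap of the 3 groups. After scaling the Tat F/F and PBS F/F sums overlapped for both genomes, at 95.9% and 97.4% of the PBS F/F means. Within the mitochondria-encoded sum, the complex I genes stayed lower after scaling, at 83.5% of the PBS F/F mean with no overlap. The complex IV (108.6%) and complex V (92.2%) genes overlapped.

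The ratio of the mitochondria-encoded to the nuclear-encoded sum does not depend on the scaling of a library. It was 1.54 to 2.09 (median 1.72) in PBS F/F, 1.61 to 1.95 (median 1.69) in Tat F/F, and 1.91, 1.91, 2.06, 2.03 and 1.90 in Tat ΔMye. The ranges of PBS F/F and Tat F/F lay over each other, and none of the 5 Tat ΔMye libraries was above the highest PBS F/F library. That was PBS F/F library 2, and the other PBS F/F libraries, at 1.79 or less, lay below all 5. In Tat F/F only library 7, at 1.95, reached into the Tat ΔMye range, and the others were at 1.78 or less. The mean was 1.76 ± 0.184 in PBS F/F, 1.73 ± 0.121 in Tat F/F and 1.96 ± 0.0753 in Tat ΔMye. In complex I, mt-Nd1 was 56.4 times the level of nuclear Ndufs1 in PBS F/F, 57.8 times in Tat F/F and 59.2 times in Tat ΔMye, and the groups overlapped. In complex IV, mt-Co1 was 6.57, 7.35 and 8.21 times the level of nuclear Cox4i1, and the Tat ΔMye libraries (7.82 to 8.77) lay above the PBS F/F libraries (5.98 to 7.68).

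All 13 mitochondria-encoded transcripts fell with Tat, by a median of 0.82. The 7 subunits of complex I, which form its proton-pumping membrane arm, fell by 0.74 to 1.5. mt-Nd1 (chrM:2751-3707, plus strand), which shares none of its 31-base sequences with other genes, was at 1802, 1948 and 2151 TPM (lowest, median and highest) in PBS F/F and at 976, 1038 and 1070.5 TPM in Tat F/F. The 5 Tat ΔMye libraries were at 1368, 1423, 1483, 1459 and 1466 TPM. The 3 groups were thus separate, with Tat ΔMye between the others, and the difference with Tat was -0.92 (SE 0.04, adjusted p = 1.39e-14). mt-Nd2 fell by 1.00 (adjusted p = 2.37e-14), mt-Nd4l by 0.83, mt-Nd6 by 0.82, mt-Nd4 by 0.78 and mt-Nd5 by 0.74, each with no overlap between Tat F/F and PBS F/F. mt-Nd6 lies on the other strand and overlaps mt-Nd5, so without a stated strand its reads cannot be told apart there.

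mt-Cytb, the mitochondria-encoded subunit of complex III, fell by 0.82 (SE 0.03, adjusted p = 6.79e-15), from 1403 to 1633 TPM in PBS F/F to 808 to 857 TPM in Tat F/F. Of the 3 complex IV subunits, mt-Co1 fell least, and least of all 13, by 0.39 (adjusted p = 2.22e-09), although after scaling it was higher by 0.25 (adjusted p = 5.55e-05). It was at 4940 to 5826 TPM in PBS F/F, 3925 to 4176 TPM in Tat F/F, and 4800, 4882, 5149, 5078 and 5177 TPM in Tat ΔMye. mt-Co3 fell by 0.54 and was 0.10 higher after scaling (adjusted p = 0.0525). In complex V, mt-Atp6, part of the proton channel, fell by 0.98 and mt-Atp8 by 0.67.

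Some of these transcripts scattered far more than others within a group. mt-Co2 was at 2396, 2082, 3644, 3817 and 3855 TPM in the Tat ΔMye libraries, a coefficient of variation of 26.9%, while mt-Cytb varied by 1.96% and mt-Nd1 by 3.19% in the same libraries. In Tat F/F, mt-Nd3 ranged from 163 to 436 TPM (39.1%), mt-Atp8 varied by 22%, mt-Co2 by 21% and mt-Atp6 by 20.6%. Nearly all 31-base sequences of mt-Co2 (100%), mt-Co3 (99.9%), mt-Atp6 (99.5%), mt-Nd4l (98.9%) and mt-Nd3 (98.1%) also occur in other annotated transcripts, mostly nuclear copies of mitochondrial DNA that are not rows of the table. The shares were 63.9% for mt-Co1 and 62.8% for mt-Nd4, and 16.8% or less for the other mitochondrial genes. mt-Co3 and mt-Nd4l varied little in Tat F/F (2.74% and 6.92%) and mt-Atp8 widely although it shares 7.47%, and the part of the copies in this scatter was not tested. The differences of mt-Co2 (-0.74), mt-Nd3 (-1.5), mt-Atp6 and mt-Atp8 with Tat are therefore less exact than those of mt-Nd1 or mt-Cytb, with SE of 0.16, 0.19, 0.11 and 0.12.

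**Figure D2:**
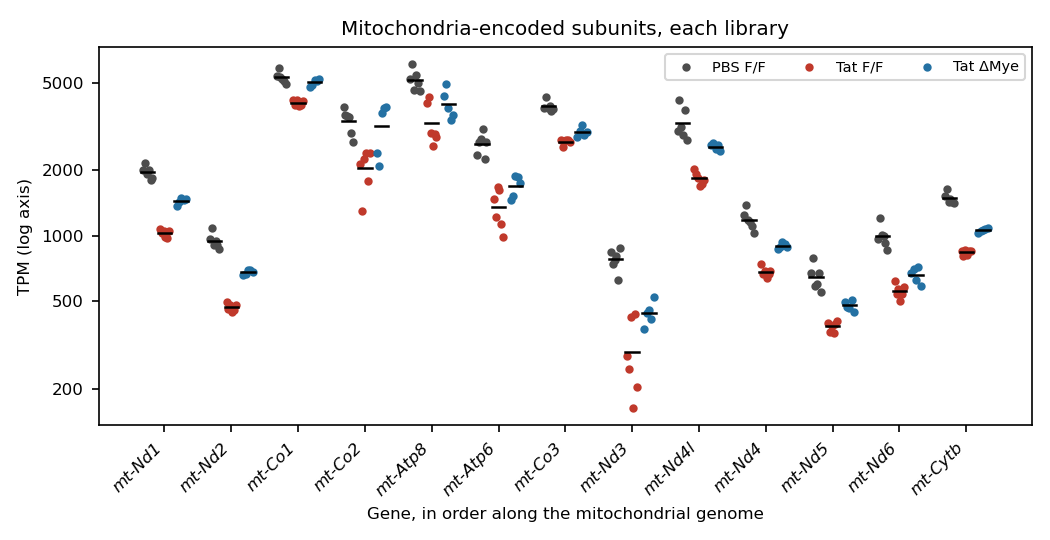
TPM on a log axis (y axis) of the 13 mitochondria-encoded subunits (x axis, in their order along the mitochondrial genome), with a point for each library and a line at each group mean. Tat F/F libraries lie below PBS F/F libraries for all 13 genes, and mt-Co2, mt-Atp8, mt-Atp6 and mt-Nd3 scatter widely in the Tat groups while mt-Nd1 and mt-Cytb are tight.

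Complex I was the nuclear-encoded complex with the lowest levels after Tat relative to PBS. Its 36 subunits summed to 4628 ± 186 TPM in PBS F/F, 2353 ± 67.1 TPM in Tat F/F (50.9% of PBS F/F) and 2854 ± 97.2 TPM in Tat ΔMye. The Tat F/F sums were 59.9% of those in PBS F/F for complex II, 66.8% for complex III, 68.2% for complex IV and 65.4% for complex V. After scaling the Tat F/F sum of complex I was 79.0% of PBS F/F and still lay apart, while the sums overlapped for complex III (103.7%), complex IV (105.9%) and complex V (101.5%), whose direction turned. The ratio of the complex I sum to the complex IV sum, which no scaling changes, was 0.923 to 0.967 in PBS F/F, 0.697 to 0.715 in Tat F/F, and 0.759, 0.753, 0.772, 0.783 and 0.779 in Tat ΔMye. The ratio to complex V was 0.767 to 0.863, 0.617 to 0.647 and 0.658 to 0.691. The 3 groups were separate for both ratios, with Tat ΔMye between the F/F groups and nearer to Tat F/F.

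**Figure D3:**
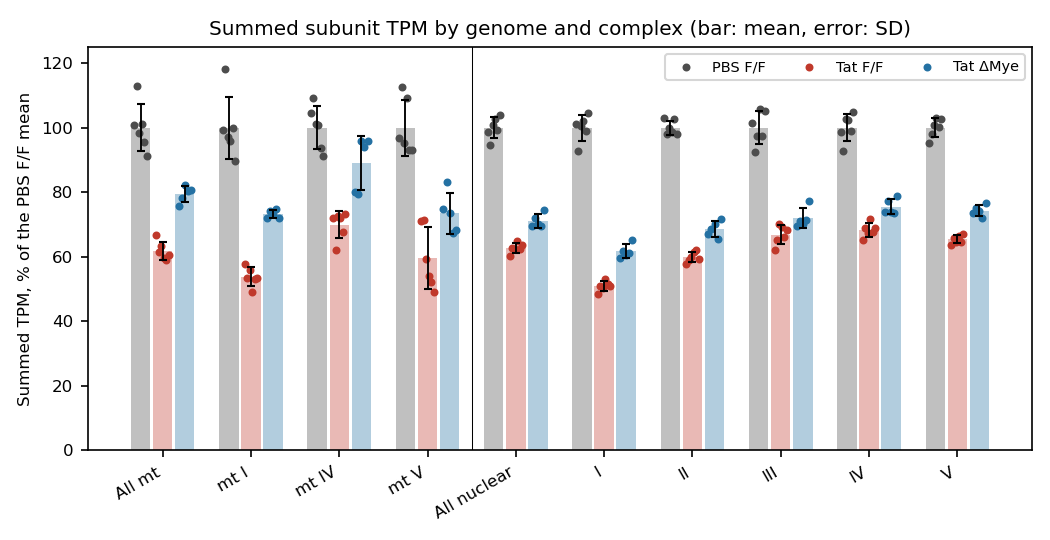
Summed subunit TPM as a percentage of the PBS F/F mean (y axis) for the mitochondria-encoded (left) and nuclear-encoded (right) subunits, in all and by complex (x axis), with bars at means, SD as errors and a point per library. Nuclear complex I is lowest in Tat F/F at 50.9%, and after median-ratio scaling complex III, IV and V sums in Tat F/F were at or slightly above those in PBS F/F.

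Of the 36 nuclear complex I subunits, 35 fell with Tat and Ndufs4 did not pass, with a median of -1.01. After scaling 25 were lower and 1 (Ndufs4) higher, with a median of -0.37. The 7 core subunits, which carry the flavin and the iron-sulfur clusters, fell by a median of 0.95 and the 29 accessory subunits had a median of -1.06. Ndufs7 (chr10:80249121-80256794, plus strand) encodes the core subunit that holds the last iron-sulfur cluster before coenzyme Q. It was at 131, 148 and 161 TPM in PBS F/F (lowest, median and highest), 42.8, 47.0 and 54.7 TPM in Tat F/F, and 65.0, 65.6, 67.5, 67.6 and 72.3 TPM in Tat ΔMye. No group overlapped another, and the difference with Tat was -1.60 (SE 0.06, adjusted p = 2.20e-15), close to the fold threshold of 1.585, which it missed without PBS F/F library 3 or Tat F/F library 7. Ndufs8, another iron-sulfur subunit, fell by 1.53 (adjusted p = 1.97e-15).

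The core subunits of the NADH-oxidising arm moved less. Ndufv1, which binds the flavin that accepts electrons from NADH, fell by 0.77 (SE 0.04, adjusted p = 3.23e-12), from a median of 59.9 to 34.1 TPM. Ndufs1, the largest iron-sulfur subunit, fell by 0.95 (SE 0.07, adjusted p = 8.19e-11), from a median of 34.6 to 17.3 TPM. Among the accessory subunits, Ndufb10 and Ndufv3 had the lowest differences, -1.62 each (adjusted p = 2.95e-15 and 3.42e-14). Ndufb10 was at 131 to 155 TPM in PBS F/F and 41.1 to 49.4 TPM in Tat F/F. Ndufa1, of the membrane arm, and Ndufa9 fell by 0.47 and 0.48, and both were higher after scaling by 0.17 and 0.16 with adjusted p of 0.0412 and 0.0396.

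Ndufs4, an accessory subunit whose loss causes a Leigh-like disease in mice, stood apart from the rest of the complex. It was at 26.6, 33.3 and 37.1 TPM in PBS F/F and 27.5, 30.3 and 33.3 TPM in Tat F/F, with 29.1, 27.9, 30.6, 31.4 and 38.1 TPM in Tat ΔMye. All 3 groups overlapped, and the difference with Tat was -0.08 (SE 0.08, adjusted p = 0.362, 95% interval -0.26 to 0.10). After scaling it was 0.55 higher (adjusted p = 7.22e-05). Ndufb1-ps was kept apart for the ending of its symbol. Its annotated type is a long non-coding RNA of a bidirectional promoter, while its promoter window carries the RefSeq symbol Ndufb1. Ndufb1-ps was at 78.0 to 119 TPM in PBS F/F and 91.9 to 106 TPM in Tat F/F (difference 0.07, adjusted p = 0.409).

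The Ndufaf genes, whose products help to build complex I without staying in it, had a median of -1.15 with Tat, and all 8 fell. Ndufaf7, a methyltransferase that acts in complex I assembly (chr17:78937136-78948052, plus strand), was at 13.3, 15.9 and 20.6 TPM in PBS F/F and at 0.896, 1.83 and 2.32 TPM in Tat F/F. The Tat ΔMye libraries were at 1.80, 2.10, 1.91, 1.38 and 1.87 TPM, within the range of Tat F/F. The difference with Tat was -3.17 (SE 0.18, adjusted p = 1.73e-12), and that between the Tat groups was 0.09 (SE 0.19, adjusted p = 0.705), or -0.12 after scaling. Ndufaf4 fell by 2.24 (adjusted p = 2.11e-07), from 4.60 to 7.27 TPM down to 0.635 to 2.55 TPM, and Ndufaf3, its partner in early assembly, fell by 1.94 (adjusted p = 1.27e-10). The least fall was that of Ndufaf8 (-0.64). In scaled values 4 of the 8 were lower and none higher.

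All 4 subunits of complex II, the succinate dehydrogenase, fell with Tat by 0.56 to 0.84. Sdha, the flavoprotein that oxidises succinate, fell by 0.77 (SE 0.03, adjusted p = 8.05e-15), from 89.0 to 96.0 TPM to 52.4 to 56.6 TPM. Sdhb, the iron-sulfur subunit, fell by 0.84 (adjusted p = 1.80e-13). Sdhc, a membrane anchor, fell by 0.56 but was 0.08 higher after scaling (adjusted p = 0.119), while the other 3 stayed lower after scaling.

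All 9 nuclear subunits of complex III fell with Tat. Their median of -0.43 was the least negative among the nuclear-encoded complexes, although by summed TPM complex IV fell least (68.2% of PBS F/F, against 66.8% for complex III). After scaling the median was 0.20, with 5 subunits higher and 2 lower. Uqcrfs1, the Rieske iron-sulfur protein, fell by 0.15 (adjusted p = 2.26e-04), from 101, 104 and 110 TPM to 91.0, 94.4 and 101 TPM, and was 0.49 higher after scaling. Uqcrc1, a core protein, fell by 0.43 and was 0.20 higher after scaling, and Cyc1, the cytochrome c1 subunit, fell by 0.51 and was 0.12 higher after scaling with an adjusted p of 0.0315. The small subunits Uqcr11 and Uqcr10 behaved otherwise, with differences of -1.47 (SE 0.08, adjusted p = 1.20e-12) and -1.03 (SE 0.05, adjusted p = 2.18e-13). Uqcr11 was at 190, 254 and 282 TPM in PBS F/F, 77.9, 90.7 and 100 TPM in Tat F/F, and 123, 129, 112, 121 and 122 TPM in Tat ΔMye. These 2 were the subunits of complex III that stayed lower after scaling.

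Cytochrome c, the carrier from complex III to complex IV and a trigger of apoptosis when released, was the exception in direction. Cycs (chr6:50562563-50566538, minus strand) was at 35.1, 38.3 and 40.4 TPM in PBS F/F, 71.6, 76.0 and 82.6 TPM in Tat F/F, and 57.0, 59.6, 56.9, 55.4 and 58.4 TPM in Tat ΔMye. Every Tat F/F library lay above every Tat ΔMye library, and those above every PBS F/F library. The difference with Tat was 1.02 (SE 0.04, adjusted p = 1.28e-14), or 1.65 after scaling, and that of Tat ΔMye against Tat F/F was -0.42 (SE 0.04, adjusted p = 1.84e-07), or -0.64 after scaling. Of its 31-base sequences, 29.4% also occur elsewhere, most of them in the copy Gm10053, a row outside the rule that was chosen after its values were seen. Gm10053 rose as well, from a mean of 116 TPM to 305 TPM (difference 1.39, adjusted p = 3.46e-17), and was lower in Tat ΔMye at 224 TPM (-0.45, adjusted p = 3.38e-08). Reads could be divided between them, and their summed TPM, at 139 to 161, 369 to 392.1 and 272 to 296 in the 3 groups, kept the order. The ratio of Cycs to Cyc1, its partner in complex III, was 0.409 ± 0.0300 in PBS F/F, 1.19 ± 0.0782 in Tat F/F and 0.799 ± 0.0422 in Tat ΔMye, with no overlap.

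In complex IV, 14 of the 15 subunits tested fell with Tat, with a median of -0.55, but after scaling the median was 0.09, with 4 subunits higher and 4 lower. Cox4i1 and Cox5a, nuclear subunits that join early around mt-Co1, fell by 0.55 (adjusted p = 4.21e-11) and 0.36 (adjusted p = 2.16e-08). After scaling Cox4i1 was 0.09 higher (adjusted p = 0.163) and Cox5a 0.28 higher (adjusted p = 3.21e-05). Cox7a2 fell least (-0.23), followed by Cox7c (-0.33), and both were higher after scaling by 0.41 and 0.31. Cox7a2l, counted here with complex IV, fell by 0.98 (SE 0.03, adjusted p = 2.21e-16) and stayed lower after scaling.

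Ndufa4 fell furthest among the subunits of complex IV that are not tissue isoforms. It was at 236, 255 and 259 TPM in PBS F/F, 100.2, 107 and 119 TPM in Tat F/F, and 120, 127, 116, 120 and 138 TPM in Tat ΔMye, with a difference with Tat of -1.21 (SE 0.04, adjusted p = 2.20e-15). AA467197, the mouse form of a protein known to take the place of Ndufa4 in complex IV of activated macrophages, is outside the rule. It was at 46.1, 54.9 and 66.2 TPM in PBS F/F, 2670.1, 2824 and 2897 TPM in Tat F/F, and 2234, 2324, 2373, 2236 and 2433 TPM in Tat ΔMye. The groups were separate, with a rise of 5.67 with Tat (SE 0.07, adjusted p = 2.18e-23) and a difference of -0.28 in Tat ΔMye (adjusted p = 1.94e-03). The ratio of AA467197 to Ndufa4 went from 0.222 ± 0.0268 in PBS F/F to 26.1 ± 1.5 in Tat F/F and was 18.7 ± 1.04 in Tat ΔMye.

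The tissue isoforms of complex IV were at low levels apart from Cox6a2. Cox6a2, the heart and muscle form of the subunit whose common form is Cox6a1, lies at chr7:128205435-128206387 on the minus strand and overlaps Itgad, which was at most 0.449 TPM. It was at 96.9, 101 and 107 TPM in PBS F/F, 38.2, 42.4 and 44.4 TPM in Tat F/F, and 27.3, 25.6, 27.9, 28.1 and 31.4 TPM in Tat ΔMye. The 3 groups did not overlap, and Tat ΔMye was lowest, with differences of -1.28 (SE 0.05, adjusted p = 3.10e-15) with Tat and -0.58 (SE 0.05, adjusted p = 1.52e-08) between the Tat groups. Cox6a1 fell by 0.50 with Tat and was 0.14 higher in Tat ΔMye (adjusted p = 8.11e-03), although both directions turned after scaling, to 0.13 (adjusted p = 0.0350) and -0.08 (adjusted p = 0.302). The ratio of Cox6a2 to Cox6a1 was 0.129 ± 0.00450, 0.0747 ± 0.00493 and 0.0453 ± 0.00317 in the 3 groups. Cox7a1, the heart form of another subunit, ranged from 1.01 to 7.16 TPM in PBS F/F and from 0 to 3.33 TPM in Tat F/F (adjusted p = 0.0215, or 0.00626 without Tat F/F library 9).

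Cox6b2, a testis form, had the lowest difference of all members (-3.28, SE 0.64, adjusted p = 8.92e-05) at very low levels, 0.736 to 1.90 TPM in PBS F/F and 0 to 0.656 TPM in Tat F/F. With a pseudocount of 1 its difference was -1.07, so its size is set by the pseudocount.

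**Figure D4:**
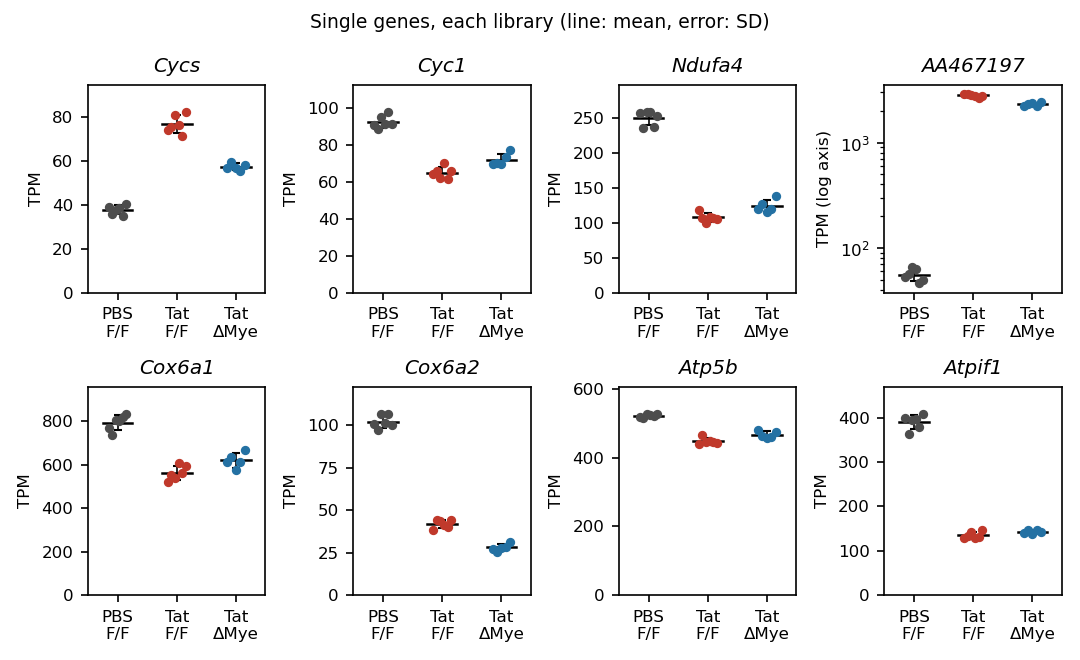
TPM (y axis) of 8 genes in each library by group (x axis), with lines at the mean and SD as errors, on a log axis for AA467197 only. Cycs was higher with Tat and Cyc1 lower, Ndufa4 and AA467197 moved in opposite directions, Cox6a2 was lowest in Tat ΔMye, and Atpif1 fell further than Atp5b, which was 0.42 higher after scaling.

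In complex V all 17 subunits fell with Tat, by a median of 0.81, and after scaling 7 were lower and 4 higher. Atp5b, the catalytic β subunit, was at 515, 523 and 527 TPM in PBS F/F and 440.4, 446 and 465 TPM in Tat F/F, a fall of 0.22 (SE 0.02, adjusted p = 6.63e-09), and was 0.42 higher after scaling (adjusted p = 6.77e-10). Atp5a1, the α subunit, fell by 0.58 and was 0.05 higher after scaling (adjusted p = 0.0965). Atp5c1, the γ subunit that turns within the head, fell by 1.00 (SE 0.03, adjusted p = 1.26e-17) with 195 to 204 TPM in PBS F/F and 97.0 to 101 TPM in Tat F/F.

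Of the 3 genes that encode the same c subunit of the membrane rotor, Atp5g1 fell by 1.26 (SE 0.05), Atp5g2 by 1.27 (SE 0.29) and Atp5g3 by 0.44 (SE 0.04). Atp5g3 had the highest level, 354 to 406 TPM in PBS F/F, and after scaling it was 0.20 higher (adjusted p = 0.00236). Atp5g2 shares 40.2% of its 31-base sequences with other genes and ranged from 4.66 to 20.8 TPM in Tat F/F. Atp5pb, of the stalk, fell by 0.32, and Atp5md, a small membrane subunit, by 0.14 (adjusted p = 1.37e-03). Both were higher after scaling, by 0.31 and 0.50.

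Atpif1, the inhibitor that stops complex V from hydrolysing ATP, is outside the rule and was named with it. It was at 364, 396 and 409 TPM in PBS F/F, 128, 131 and 147 TPM in Tat F/F, and 140.4, 147, 138, 147 and 143 TPM in Tat ΔMye. The Tat groups overlapped and lay far below PBS F/F, with differences of -1.53 (SE 0.04, adjusted p = 3.17e-18) with Tat and 0.09 (SE 0.04, adjusted p = 0.0635) between the Tat groups, the latter -0.13 after scaling (adjusted p = 0.0361). The ratio of Atpif1 to Atp5b was 0.749 ± 0.0269, 0.301 ± 0.0196 and 0.306 ± 0.0119 in the 3 groups.

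The second comparison asked how PMs without myeloid IKKβ differed from F/F PMs when both had Tat. It shares the Tat F/F libraries with the first, so an error in their mean moves the values of both comparisons in opposite directions. Of the 104 members tested, 71 (68.3%) were higher in Tat ΔMye, against 38.8% of all tested genes, and 2 (Cycs and Cox6a2) were lower, against 8.87%. The groups did not overlap for 46 higher and 2 lower members, against 28.6% and 8.01% of all genes. The median difference was 0.26, 0.03 above that of all genes. After scaling the median was 0.04, with 11 members higher and 7 lower beside 15.9% and 19.4% of all genes. Past the fold threshold were 1 member (Cox6b2) higher and 0 lower, against 0.440% and 0.316% of all genes, and after scaling 0 in either direction, against 0.239% and 0.612%.

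The Tat ΔMye mean lay between the PBS F/F and Tat F/F means for 101 of 104 members (97.1%), against 74.3% of all tested genes. Cox6a2, Uqcrh and Ndufb1-ps were below both. Against PBS F/F, Tat ΔMye had 92 members lower and 1 (Cycs) higher, where 58.8% and 17.5% of all tested genes passed. The median of that comparison was -0.57, beside -0.43 for all genes. After scaling 32 members (30.8%) were lower and 12 (11.5%) higher, against 33.9% and 33.8% of all genes, with a median of -0.16. Of the 13 mitochondria-encoded members, 0 were then lower and 1 higher, with a median of -0.01. The positions between the means were counted on unscaled TPM only.

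Mitochondria-encoded transcripts had higher levels in Tat ΔMye, with 11 of 13 passing (84.6%, against 38.8% of all tested genes) and a median of 0.34, or 0.12 after scaling. Their sum was 128.7% of that in Tat F/F, against 113% for the nuclear-encoded sum, and after scaling the log2 ratios of the sums were 0.15 and -0.04, so that the direction of the nuclear sum turned. All 7 complex I genes passed, with a median of 0.48, and the 3 complex IV genes had a median of 0.31. After scaling the summed mitochondria-encoded complex I genes were at 117% of Tat F/F with no overlap. The sums of complex IV (109.4%) and complex V (106%) overlapped. mt-Nd2 was 0.53 higher (SE 0.04, adjusted p = 9.63e-09) and mt-Nd1 0.49 higher (SE 0.04, adjusted p = 5.84e-09), and these with mt-Nd4l (0.48) stayed higher after scaling. mt-Cytb was 0.34 higher (adjusted p = 8.38e-08) and mt-Co1 0.31 higher (adjusted p = 6.02e-07). mt-Co3 was 0.15 higher and 0.07 lower after scaling (adjusted p = 0.213). mt-Nd3 (0.68, SE 0.19), mt-Co2 (0.62, SE 0.17) and mt-Nd6 (0.24, SE 0.07) passed on overlapping libraries, and their calls were lost without any of 6, 5 and 8 libraries, with adjusted p of up to 0.0164 (without Tat ΔMye library 23), 0.0173 (22) and 0.0263 (22). mt-Atp6 and mt-Atp8 had differences of 0.34 and 0.31 with adjusted p of 0.0193 and 0.0396.

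Among nuclear complex I subunits 28 of 36 (77.8%, against 38.8% of all tested genes) were higher in Tat ΔMye and none lower, with a median of 0.29. After scaling 5 were higher (13.9%, near the 15.9% of all tested genes) and none lower, with a median of 0.07. The 5 were Ndufb5 (0.55), Ndufv3 (0.53), Ndufb11 (0.52), Ndufs7 (0.49) and Ndufs1 (0.45), each on the unscaled values. Ndufb5, of the membrane arm, was at 45.4 to 55.8 TPM in Tat F/F and at 71.8, 68.3, 82.1, 69.1 and 82.3 TPM in Tat ΔMye, all above the Tat F/F range (SE 0.06, adjusted p = 7.25e-07). Ndufa5, with an equal difference of 0.55 and a larger SE of 0.11, and Ndufb10 (0.44) were higher before scaling and not after (adjusted p = 0.0190 and 0.0223). The Ndufaf genes had a median of 0.40 and 4 of 8 higher, with Ndufaf4 at 1.29 (SE 0.28, adjusted p = 7.27e-04), Ndufaf3 at 0.80 (adjusted p = 1.59e-04) and Ndufaf2 at 0.66 (adjusted p = 1.11e-06), all 3 of which stayed higher after scaling. Of Ndufaf2, 65.1% of the 31-base sequences are shared with other genes.

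Complex II had 3 of 4 subunits higher (75%, median 0.22) and complex III 4 of 9 (44.4%, median 0.12). Complex IV had 10 of 15 higher (66.7%, median 0.16) with 1 lower, and complex V 11 of 17 higher (64.7%, median 0.24). Of all tested genes 38.8% were higher and 8.87% lower, with a median of 0.22, so complex III was near that share. After scaling the medians lay between -0.10 and 0.02, with none higher and 1, 2, 1 and 2 subunits lower in complexes II to V. In those values 15.9% of all tested genes were higher and 19.4% lower. Sdha was 0.28 higher (adjusted p = 5.75e-07), or 0.06 after scaling (adjusted p = 0.221), and Uqcr11 0.44 higher (adjusted p = 2.19e-04). Uqcrh, the acidic hinge subunit of complex III, had a difference of -0.03 (adjusted p = 0.593), or -0.25 after scaling (adjusted p = 0.00225). Atp5b (0.06) and Atp5a1 (0.07) had adjusted p of 0.0240 and 0.0373, and both were lower after scaling by 0.16 and 0.15. Atp5g1 was 0.42 higher (SE 0.05, adjusted p = 8.52e-07), and Atp5g2, at 0.63 with SE 0.31, did not pass (adjusted p = 0.0862). Cox6b2 was at 1.33, 2.63, 0.326, 0.686 and 0 TPM in Tat ΔMye (difference 2.25, SE 0.67, adjusted p = 7.47e-03), and the call was lost when any of 8 libraries was left out, with an adjusted p of up to 0.0294 (without Tat ΔMye library 20).

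Assembly factors outside the rule, taken from lists written with earlier results of these data known, fell with Tat at 31 of 40 tested (77.5%, against 67.6% of all tested genes) and rose at 3 (7.5%, against 17%). Past the fold threshold 11 were lower, where 19.4% of all genes were, and 0 higher, and the median was -0.96. All 9 tested factors of complex I fell, among them Tmem126b (-2.21, adjusted p = 2.21e-14), Nubpl (-2.0) and Ecsit (-1.90), the first and last of which act together in the membrane arm. Those of the other complexes that fell included Atpaf1 (-2.49, adjusted p = 3.88e-12), which helps to form the head of complex V, Sdhaf1 (-2.17, adjusted p = 1.43e-14), which protects the iron-sulfur subunit Sdhb, Bcs1l (-2.10), which inserts Uqcrfs1 into complex III, Coa6 (-1.92), Uqcc3 (-1.87), Sdhaf4 (-1.72), Sdhaf3 (-1.60) and Coa4 (-1.60). The 3 that rose were Sco1 (1.25, adjusted p = 1.62e-11) and Cox17 (0.84, adjusted p = 8.22e-13), which bring copper to complex IV, and Coa5 (1.17, adjusted p = 4.91e-16), a further complex IV factor. Sco1 was at 5.62 to 7.75 TPM in PBS F/F, 14.1 to 18.9 TPM in Tat F/F, and 11.9, 10.3, 10.6, 11.3 and 10.3 TPM in Tat ΔMye, with no overlap.

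In Tat ΔMye, 23 of these 40 factors (57.5%, against 38.8% of all tested genes) were higher than in Tat F/F and 2 (Sco1 and Coa5) lower. Atpaf1 was 1.13 higher (adjusted p = 4.88e-06), Sdhaf1 0.93 higher (adjusted p = 1.15e-07) and Coa6 0.74 higher (adjusted p = 1.96e-08), and Sco1 was 0.60 lower (adjusted p = 6.62e-06). After scaling 10 factors were higher (25%, against 15.9% of all tested genes) and 5 lower (12.5%, against 19.4%). With Tat, scaled values gave 20 lower (50%, against 38.0%) and 9 higher (22.5%, against 37.3%), with Sco1, Cox17 and Coa5 still higher.

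Genes that maintain and express mitochondrial DNA fell with Tat at 15 of 22 and rose at 1, with a median of -0.68. The share that fell, 68.2%, was near the 67.6% of all tested genes. Polrmt, the mitochondrial RNA polymerase, fell by 1.08 (adjusted p = 4.48e-09), Lrpprc, which stabilises mitochondrial mRNAs, by 1.25 (adjusted p = 6.77e-14), and Twnk, the mitochondrial helicase, by 1.88. Polg2 fell by 2.17 and Fastkd3 by 2.27, both at under 5 TPM, and the Fastkd3 call was lost without any of 5 libraries, with an adjusted p of up to 0.0198 (without Tat F/F library 8). Tfam, which packages mitochondrial DNA and starts its transcription, had a difference of -0.39 (adjusted p = 0.0321), or 0.24 after scaling (adjusted p = 0.193). Pnpt1, a mitochondrial RNA-degrading enzyme, rose by 1.25 (adjusted p = 4.28e-15) and was 0.46 lower in Tat ΔMye (adjusted p = 3.38e-07). In Tat ΔMye 8 of these 22 genes (36.4%, near the 38.8% of all tested genes) were higher than in Tat F/F and 1 (Pnpt1) lower.

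Of 8 nuclear regulators tested, 3 fell (37.5%, against 67.6% of all tested genes) and 1 rose with Tat, with a median of -0.19. Ppargc1b, a coactivator of respiratory genes, fell by 2.77 (SE 0.24, adjusted p = 1.25e-09), from 1.23 to 1.51 TPM to 0.0589 to 0.205 TPM. Gabpb1, a subunit of GABP, rose by 0.99 (adjusted p = 1.42e-12), while Nrf1 (-0.13, adjusted p = 0.144), Gabpa (0.08, adjusted p = 0.209) and Esrra (0.04, adjusted p = 0.562) did not pass, although after scaling they were higher by 0.50, 0.71 and 0.68. Yy1 fell by 0.73 (adjusted p = 1.27e-08), or by 0.10 after scaling (adjusted p = 0.122). In Tat ΔMye 5 of the 8 (62.5%, against 38.8% of all genes) were higher than in Tat F/F, with Ppargc1b at 0.92 (adjusted p = 3.60e-03) and an adjusted p of 0.0137 without library 22.

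**Figure D5:**
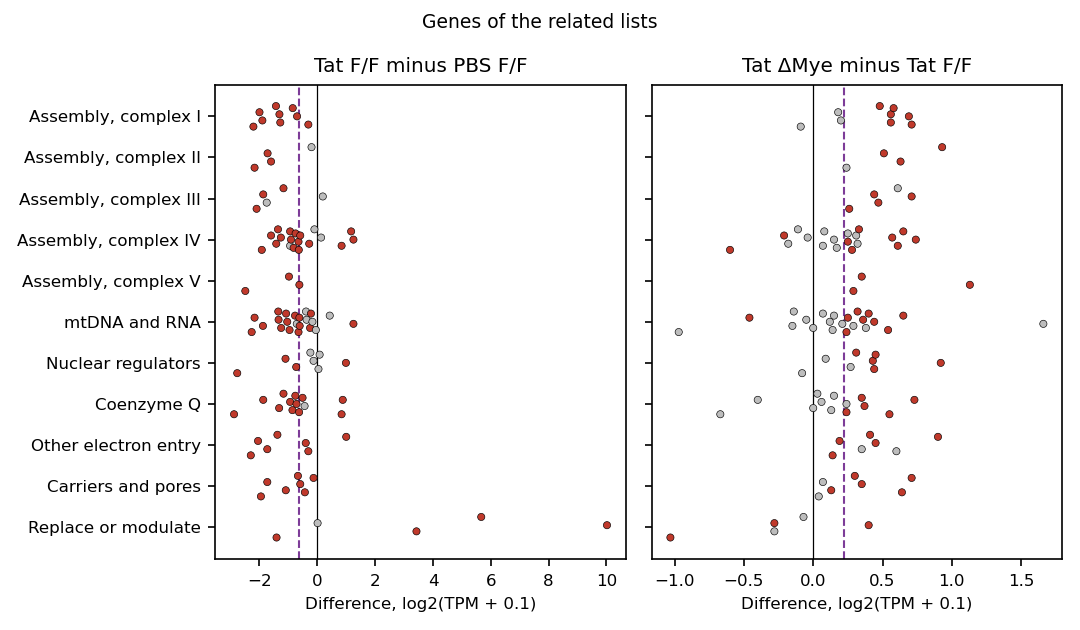
Differences on the log2(TPM + 0.1) scale (x axis) of the genes in each related list (y axis), for Tat F/F minus PBS F/F (left) and Tat ΔMye minus Tat F/F (right), with adjusted p under 0.01 in red and dashed lines at the medians of all tested genes. Assembly factors of complexes I and II lie mostly left of zero with Tat, and Nos2 (10.02), AA467197 (5.67) and Acod1 (3.43) lie far to the right.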

How the data were processed

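RNA-seq of 17 libraries of mouse PMs in 3 groups was used, with groups taken from the sample labels. A further genotype that all 3 groups share is not reported here. The deposited values are TPM, which the authors made with Salmon and the Ensembl annotation of GRCm38 (mm10 in the submitters' processing notes). The library kit and any selection of polyadenylated RNA are not given in the sources used here, and such selection bears on mitochondrial transcripts. The authors' own comparison, with TMM and a likelihood ratio test, was not repeated. Depth and counting error are unknown for TPM, so the spread between libraries is the measure of precision.

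Genes with 1 TPM or more in at least 5 libraries were fitted with all 3 groups in a single limma model (version 3.58.1, R 4.3.3, trended eBayes) of log2(TPM + 0.1), with 14 residual degrees of freedom. Adjusted p are Benjamini-Hochberg values from limma over all 10451 genes tested, and a change past the threshold had an adjusted p under 0.01, with a fold over 3 where stated. Fold changes on this scale understate the change of low genes. Sums, ratios and lists were given no test.

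The members and lists were chosen with earlier results of these data known. By rule, the genes named were all mitochondria-encoded members, 15 core genes, the 3 highest and 3 lowest differences in each comparison among nuclear subunits of complexes I, IV and V, the highest and lowest of complexes II and III and of the Ndufaf genes, members past the fold threshold, tissue isoforms, and of each related list the genes past the fold threshold and the highest and lowest. Others, such as Ndufs8, Uqcr10, Atp5g3, Ndufaf2, Cox17, Coa5, Polrmt, Lrpprc and the regulators Nrf1, Gabpa, Esrra and Yy1, were added after their values were seen. Positions are from GENCODE M21 (GRCm38), and windows and shared 31-base sequences from reference sequences. Alternatives were median-ratio scaling, a pseudocount of 1, a filter at 5 TPM or none, rescaling without the mitochondria-encoded rows, sums without the highest subunit, no fold threshold, the compared groups alone, an exact Wilcoxon test and each library left out in turn. Python 3.11.15, pandas 2.3.3, numpy 2.4.6 and matplotlib 3.10.9 were used.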

Additional observations from a re-analysis of the deposited data

Results flagged for a closer look

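In 309 groups of 5 or 6 libraries (the named genes and the summed complexes), 15 held a single library far from the others of its group, with a gap to the nearest above Dixon's 95% critical value. Chance gives about 1 in 20 such groups. Among members, Atp5b was at 465.4 TPM in Tat F/F library 8 (the others 440.4 to 448.2), Atp5md at 633.3 in PBS F/F library 1 (692.9 to 721.3), Atp5mpl at 341.2 in the same library (430 to 474.6), and Ndufa1 at 268.2 in PBS F/F library 2 (323.5 to 355.6). Uqcr11 was at 190.1 TPM in PBS F/F library 2 (247.8 to 282), Uqcrfs1 at 100.7 in Tat ΔMye library 20 (95.53 to 96.52), and mt-Co3 at 4289.3 in PBS F/F library 2 (3730.8 to 3927.8) and at 2545.2 in Tat F/F library 8 (2679.1 to 2741.7). The summed nuclear complex III was at 1713.1 TPM in Tat ΔMye library 23 (1542.5 to 1580.9). Among related genes, Acod1 was at 3073.6 TPM in Tat F/F library 7 (3013.4 to 3026.8), Bcs1l at 2.274 in Tat F/F library 9 (1.542 to 1.794), Pnpt1 at 16.05 in PBS F/F library 5 (17.14 to 17.44), and Sdhaf1 at 1.568 and Tmem126b at 2.097 in Tat F/F library 10 (2.095 to 2.268 and 2.859 to 3.286). Tmem70 was at 13.36 TPM in Tat ΔMye library 19 (17.05 to 18.52). PBS F/F library 2 supplied 3 of the 15, low for the small transcripts of Ndufa1 and Uqcr11 and high for mt-Co3.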

How the results depend on the processing

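The scaling of the libraries was the choice with the largest effect among the alternatives run. With median-ratio scaling, 17 members rose and 49 fell with Tat, of which 1 and 3 passed the fold threshold, and 11 were higher and 7 lower in Tat ΔMye than in Tat F/F, with 0 past the fold threshold. The log2 ratios of summed TPM then became, for Tat F/F to PBS F/F, -0.06 (mitochondria-encoded), -0.04 (nuclear-encoded), -0.34 (complex I), -0.10 (II), 0.05 (III), 0.08 (IV) and 0.02 (V), and for Tat ΔMye to Tat F/F 0.15, -0.04, 0.06, -0.02, -0.11, -0.07 and -0.04.

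With the same scaling the members with a positive difference with Tat went from 2 to 29. Among the genes named by rule it turned positive for mt-Co3 (0.10), mt-Co1 (0.25), Ndufa9 (0.16), Ndufa1 (0.17), Ndufs4 (0.55), Sdhc (0.08), Uqcrc1 (0.20), Uqcrfs1 (0.49), Uqcrh (0.22), Cyc1 (0.12), Cox4i1 (0.09), Cox5a (0.28), Cox5b (0.14), Cox7c (0.31), Cox7a2 (0.41), Atp5a1 (0.05), Atp5b (0.42), Atp5pb (0.31) and Atp5md (0.50), and outside the members for Ikbkb (0.43), Foxred1 (0.32), Sdhaf2 (0.43), Tmem70 (0.02), Vdac3 (0.50), Coq8a (0.15), Etfa (0.24) and Slc25a3 (0.20). Between the Tat groups the members with a negative difference went from 4 to 44, and of the genes named by rule it turned negative for mt-Co3 (-0.07), Ndufv1 (-0.01), Ndufa9 (-0.08), Ndufa1 (-0.15), Ndufs4 (-0.16), Ndufaf7 (-0.12), Sdhb (-0.06), Sdhc (-0.17), Uqcrc1 (-0.01), Uqcrfs1 (-0.19), Cyc1 (-0.07), Cox4i1 (-0.07), Cox5a (-0.06), Cox7c (-0.14), Cox7a2 (-0.15), Cox7a2l (-0.03), Ndufa4 (-0.02), Atp5a1 (-0.15), Atp5b (-0.16), Atp5pb (-0.14) and Atp5md (-0.12), and for Atpif1 (-0.13), Twnk (-0.05), Coq10b (-0.19), Vdac3 (-0.09), Etfa (-0.08) and Slc25a3 (-0.18).

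Without a fold threshold 1 member rose and 100 fell with Tat, and 71 were higher and 2 lower in Tat ΔMye. The 1 member past the fold threshold there, Cox6b2, was lost (0 members) with a pseudocount of 1, without a filter, with a filter of 5 TPM, with scaling, with only the compared groups in the fit and with the exact Wilcoxon test. The exact Wilcoxon test with Benjamini-Hochberg adjustment gave 0 higher and 0 lower members between the Tat groups, because its smallest p with 6 and 5 libraries (0.00433) gave an adjusted p of at least 0.0119, while 75 members and 5657 genes had an unadjusted p under 0.05. The summed complex II ratio with Tat was -0.78 after rescaling without mitochondria-encoded rows and -0.70 without its highest subunit, and that of complex V -0.69 without its highest subunit.

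Leaving out each library in turn gave 0 to 0 members past the fold threshold higher with Tat, 6 to 8 lower, 1 to 1 higher and 100 to 101 lower by adjusted p alone. Between the Tat groups it gave 0 to 1 and 0 to 0 past the fold threshold, and 57 to 73 higher and 2 to 2 lower. The ratio of summed TPM with Tat ranged from -0.72 to -0.66 (mitochondria-encoded), -0.69 to -0.66 (nuclear-encoded), -1.0 to -0.96 (complex I), -0.75 to -0.73 (II), -0.60 to -0.56 (III), -0.57 to -0.54 (IV) and -0.63 to -0.60 (V), and between the Tat groups from 0.35 to 0.39, 0.16 to 0.19, 0.26 to 0.29, 0.18 to 0.21, 0.08 to 0.12, 0.13 to 0.16 and 0.17 to 0.19. Between the Tat groups 10 members lost their call without at least 1 library and 4 gained one, and with Tat 0 lost and 1 gained it. Ndufs4 turned to -0.01 without Tat ΔMye library 23 and Ndufaf7 to -0.08 without Tat F/F library 8, neither of which passed in any case. No paired analysis was possible because the groups share no replicate numbers. The depth is unknown, and ΔMye PMs given PBS were not analysed here. The study's legends describe its heatmap columns as mouse replicates, but do not say whether the 2 F/F groups share mice.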

Other observations

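Genes that feed electrons into coenzyme Q by other routes fell with Tat at 6 of 7 (85.7%, against 67.6% of all tested genes), with a median of -1.38. Gpd2, the mitochondrial glycerol-3-phosphate dehydrogenase, rose by 1.00 (adjusted p = 9.85e-12), from 11.4 to 14.4 TPM in PBS F/F to 24.4 to 27.7 TPM in Tat F/F, and was 0.45 higher again in Tat ΔMye (adjusted p = 1.17e-05), with no overlap of groups. Prodh (-2.30), Dhodh (-2.05) and Etfb (-1.73) fell past the fold threshold. Etfb, a subunit of the flavoprotein that carries electrons from fatty acid oxidation, was 0.90 higher in Tat ΔMye than in Tat F/F (adjusted p = 6.80e-10), and 5 of the 7 genes (71.4%, against 38.8% of all tested genes) were higher there. Of 13 coenzyme Q synthesis genes, 10 fell (76.9%) and 2 rose (15.4%, against 17% of all tested genes) with Tat, with a median of -0.76. Coq10b rose by 0.88 and Pdss1 by 0.84, while Coq10a, a relative of Coq10b, fell by 2.88 (adjusted p = 5.18e-16) and Coq9 by 1.87. In Tat ΔMye 5 of the 13 (38.5%, near the 38.8% of all tested genes) were higher than in Tat F/F.

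All 7 carriers and channels tested fell with Tat, with a median of -0.67, although Vdac3 (-0.13) and Slc25a3, the phosphate carrier (-0.43), were higher after scaling by 0.50 and 0.20. Ucp2, an uncoupling protein family member, was at 363 to 405 TPM in PBS F/F, 90.8 to 108 TPM in Tat F/F and 157 to 173 TPM in Tat ΔMye, with differences of -1.95 (adjusted p = 8.78e-20) and 0.71 (adjusted p = 3.21e-11). Slc25a4, an ADP/ATP carrier, fell by 1.73 and was 0.64 higher in Tat ΔMye. Of 5 genes whose products replace or restrain parts of the chain, AA467197, Acod1 and Nos2 rose, Higd2a fell by 1.41 and Higd1a had a difference of 0.01 (adjusted p = 0.907), or 0.65 after scaling. Nos2, whose product nitric oxide binds complex IV, went from 0.630 to 1.00 TPM to 843 to 995 TPM and was 347 to 518 TPM in Tat ΔMye (-1.03, adjusted p = 8.08e-08). Acod1, which makes itaconate, an inhibitor of complex II, rose by 3.43 and did not pass between the Tat groups (-0.07, adjusted p = 0.0308, or -0.30 after scaling with an adjusted p of 3.63e-08).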
